A study of Mus musculus with 9 samples.

Results

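The Hedgehog pathway was described through 9 mouse genes, Shh, Ptch1, Hhip, Boc, Smo, Sufu, Gli1, Gli2 and Gli3, measured on Agilent one-colour microarrays in 4 groups of brain samples. The genes were taken by name: each non-control probe whose annotated symbol was one of the 9 was kept, which gave 14 of 55666 probes and 9 of 34733 gene names. 5 of the 9 genes (Ptch1, Hhip, Smo, Sufu and Gli1) had 2 probes each, and the other 4 genes had 1. EZH2-KO glioma tissue (n = 3) was brain tumour taken from mice of the Mosaic Analysis with Double Markers (MADM) background in which EZH2, a histone methyltransferase of the Polycomb system, was knocked out. MADM makes sparse, marked sister cells of different genotype by recombination between chromosomes. MADM glioma cells (n = 2) were brain tumour cells of the same background, for which the labels give no further genotype. Neural stem cells (n = 2) and astrocytes (n = 2) came from normal brain of wild-type C57BL/6J mice. The labels used here name no age, promoter, Cre driver or number of animals for any group, and they do not say whether replicates were separate animals or cultures, so the p-values rest on a spread between arrays that may be only technical. Both tumour groups carry the MADM background and neither normal group does, so strain background and tumour cannot be told apart. The tissue with EZH2 knocked out was the only tissue, so the knockout and the step between tissue and cells cannot be told apart either.

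Hedgehog ligands such as Shh are secreted proteins that bind the receptor Ptch1. Without ligand, Ptch1 keeps the membrane protein Smo inactive, Sufu holds the Gli proteins in the cytoplasm, and Gli3 in particular is cut to a repressor. With ligand, Smo gathers in the primary cilium and Gli2 and Gli1 act as activators, so that Gli1, Ptch1 and Hhip are transcribed and their RNA is commonly read as output of the pathway. In the brain the pathway patterns the ventral neural tube, maintains neural stem cells and drives the growth of cerebellar granule neuron precursors, and mature astrocytes of some regions respond to Shh released by neurons.

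The sequences of 3 probes of Ptch1 and Sufu are printed because each probe reads a single short stretch of RNA. The second Ptch1 probe, which differed from the brighter one in tissue, is not among them. The brighter Ptch1 probe was at chr13:63612879-63612938 on the minus strand, and the Sufu probes were at chr19:46529259-46529318 and chr19:46558091-46558150 on the plus strand, all in mm9 as the arrays' annotation gives them.
Ptch1, brighter probe: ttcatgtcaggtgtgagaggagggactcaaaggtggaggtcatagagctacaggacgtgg
Sufu, brighter probe: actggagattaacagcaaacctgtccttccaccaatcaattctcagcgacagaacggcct
Sufu, other probe: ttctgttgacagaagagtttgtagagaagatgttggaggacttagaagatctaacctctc

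Promoters are shown because several members differed together between groups and Gli proteins bind DNA at a known motif. RefSeq promoters (GRCm38.p6, 250 bases before to 50 bases after the gene start) were matched by symbol for 6 of the 9 members, Ptch1, Smo, Gli2, Gli3, Hhip and Sufu. The Gli motif GACCACCCA, searched on both strands, was in 0 of the 6 and in 0.253% of 32851 promoters. Its core CCACCC, which the full motif contains, was in 4 of the 6 and in 31.5% of all promoters. The windows with the core in Smo, Hhip and Gli3 are given 5′ to 3′ on the gene's own strand, with the core in capitals (GGGTGG where it lies on the opposite strand).
Smo, chr6:29735323-29735352, plus strand: tcccgaatacccCCACCCcagccccttcgg
Hhip, chr8:80058149-80058178, minus strand: cgcagccggaggCCACCCtgggccccggcg
Gli3, chr13:15463541-15463570, plus strand: gggacggggcggGGGTGGgggcgcgcgagg

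A level below is the log2 of a probe's processed signal minus the log2 of that array's 75th percentile, so 0 is the 75th percentile and a step of 1 is a 2-fold difference. Levels were compared only within a probe. The share of spots well above background lay between 60.1% and 65.7%, and the 75th percentile lay between 414.7 and 897.2 intensity units. The 6 arrays of cells shared a slide and a scan, and the 3 tissue arrays shared another slide and scan, so slide and tissue cannot be told apart in any comparison with tissue. A gene was called when limma's adjusted p (Benjamini-Hochberg over all genes tested) was below 0.05 and the difference was at least 2-fold. Ezh2, the gene named as knocked out, stood at 1.91, 1.62 and 1.48 in EZH2-KO glioma tissue, against 3.03 and 3.24 in MADM glioma cells, 2.14 and 3.38 in neural stem cells and 0.19 and -0.58 in astrocytes. Tissue was below both glioma cell arrays but above both astrocyte arrays, and the labels used here do not say which part of Ezh2 was deleted. In bulk samples such as these, fewer cells of a type and less RNA per cell cannot be told apart.

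The cell types were checked against marker lists, each given as its mean level per array. The 6 oligodendrocyte precursor markers averaged between 5.32 and 5.95 in EZH2-KO glioma tissue, between 5.33 and 5.89 in MADM glioma cells, between 3.61 and 4.83 in neural stem cells and between -1.70 and -1.05 in astrocytes. The 6 astrocyte markers averaged between 1.46 and 2.78 in tissue, -2.51 and -2.84 in glioma cells, 3.07 and -0.39 in neural stem cells and 4.77 and 3.36 in astrocytes, so the 2 neural stem cell arrays differed widely. Markers of other cells were present too. The 6 microglia and macrophage markers averaged between 4.26 and 5.21 in tissue, -3.92 and -3.99 in glioma cells, 0.55 and -1.52 in neural stem cells and 4.46 and 4.67 in astrocytes. All 6 were above background in tissue, neural stem cells and astrocytes, while Cx3cr1, Aif1, Ctss and C1qa were above background on neither glioma cell array. Csf1r and Itgam were above background on both. Csf1r was lower there, at -0.50 and -0.13, against means of 5.26 in tissue, 0.90 in neural stem cells and 5.60 in astrocytes. Itgam did not follow the list, at 4.97 and 4.29 in glioma cells against means of 4.73, 4.85 and 4.65 in the same order. The 6 fibroblast and meningeal markers averaged between -2.59 and -0.41 in tissue, -2.64 and -4.59 in glioma cells and -1.65 and -2.91 in neural stem cells. In astrocytes they averaged 1.01 in replicate 1 and 5.23 in replicate 2, all above background. The part of these other cells in the differences from astrocytes was not tested.

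**Figure D1:**
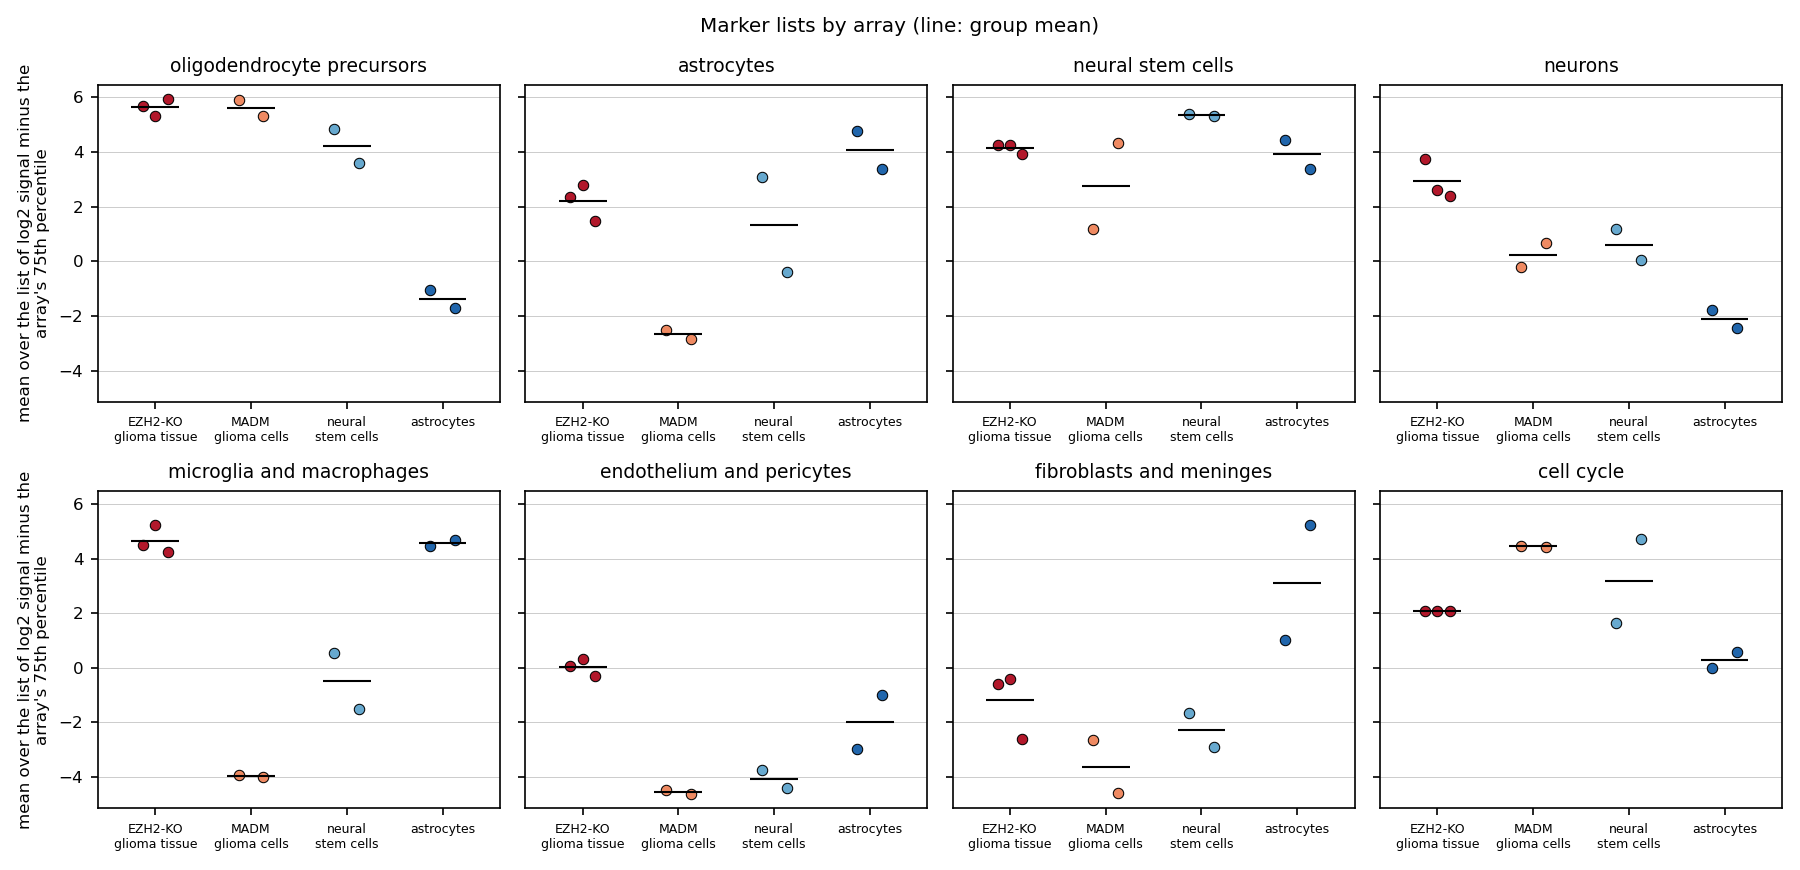
Mean level of each of 8 marker lists (vertical axis, log2 relative to the array's 75th percentile) on every array, with points for arrays and a line for the group mean. Microglia and macrophage markers were high in EZH2-KO glioma tissue and in astrocytes, and fibroblast markers reached 5.23 on one astrocyte array and 1.01 on the other.

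The 9 genes were lower in tumour groups than in astrocytes more often than higher. Each gene was counted by its brightest tested probe. In MADM glioma cells over astrocytes, 5 of 9 fell (Smo, Gli3, Gli1, Gli2 and Sufu) and 0 rose, while 9.84% of all genes fell, 9.0% rose and 18.8% were called either way. Of the second probes, that of Sufu was also called lower in this comparison (limma adjusted p = 0.014). That of Smo gave -0.17 (adjusted p = 0.76), and that of Gli1 was above background in neither group. The members' median log2 fold change was -2.01, beside 0.15 for all genes tested, and no overlap between arrays of both groups was seen for 9 of 9 members and for 69.2% of all genes. In EZH2-KO glioma tissue over astrocytes, 6 of 9 fell (Smo, Gli3, Boc, Gli1, Gli2 and Shh) and 1 rose (Hhip), against 12.4% of all genes lower, 10.6% higher and 23.0% called either way. Here the second Smo and Gli1 probes were not called, while those of Ptch1 and Sufu were called lower. The median was -2.64 for the members and -0.06 for all genes, and arrays did not overlap for 7 of 9 members against 58.0% of all genes. These comparisons share the 2 astrocyte arrays, and Shh entered them only through its detection in astrocytes. Without 1 array the count in glioma cells over astrocytes dropped to 3 (glioma cell replicate 1), 1 (glioma cell replicate 2) or 2 (either astrocyte array). In tissue over astrocytes it dropped to 4 (tissue replicate 1 or either astrocyte array) or 3 (tissue replicate 3).

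Fewer members were called in the other 4 comparisons. In MADM glioma cells over neural stem cells, limma called 0 of 9 members, beside 0.66% of all genes higher, 0.318% lower and 0.977% either way, and 5 of 9 had an unadjusted p below 0.05, as did 3615 of all 24866 genes (14.5%). The median log2 fold change was -1.01 for the members and -0.05 for all genes, and arrays did not overlap for 6 of 9 members against 46.0% of all genes. In EZH2-KO glioma tissue over neural stem cells, 2 of 9 fell (Smo and Gli3) and 0 rose, beside 9.89% of all genes lower, 8.08% higher and 18.0% called either way, with medians of -1.06 and -0.22. Arrays did not overlap for 4 of 9 members, against 52.3% of all genes. In neural stem cells over astrocytes, 1 of 9 fell (Gli1) and 0 rose, beside 7.85% of all genes lower, 6.74% higher and 14.6% called either way. The medians were -0.31 and 0.21, and 5 of 9 did not overlap, against 66.3% of all genes. In EZH2-KO glioma tissue over MADM glioma cells, 1 of 9 rose (Sufu) and 0 fell, beside 7.82% of all genes higher, 9.11% lower and 16.9% called either way. The medians were 0.24 and -0.16, and 5 of 9 did not overlap, against 55.2% of all genes. Leaving out neural stem cell replicate 2 left 1 member called in tissue over neural stem cells, leaving out astrocyte replicate 1 made it 2 in neural stem cells over astrocytes, and leaving out tissue replicate 1 or 2 or either glioma cell array left 0 in tissue over glioma cells.

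**Figure D2:**
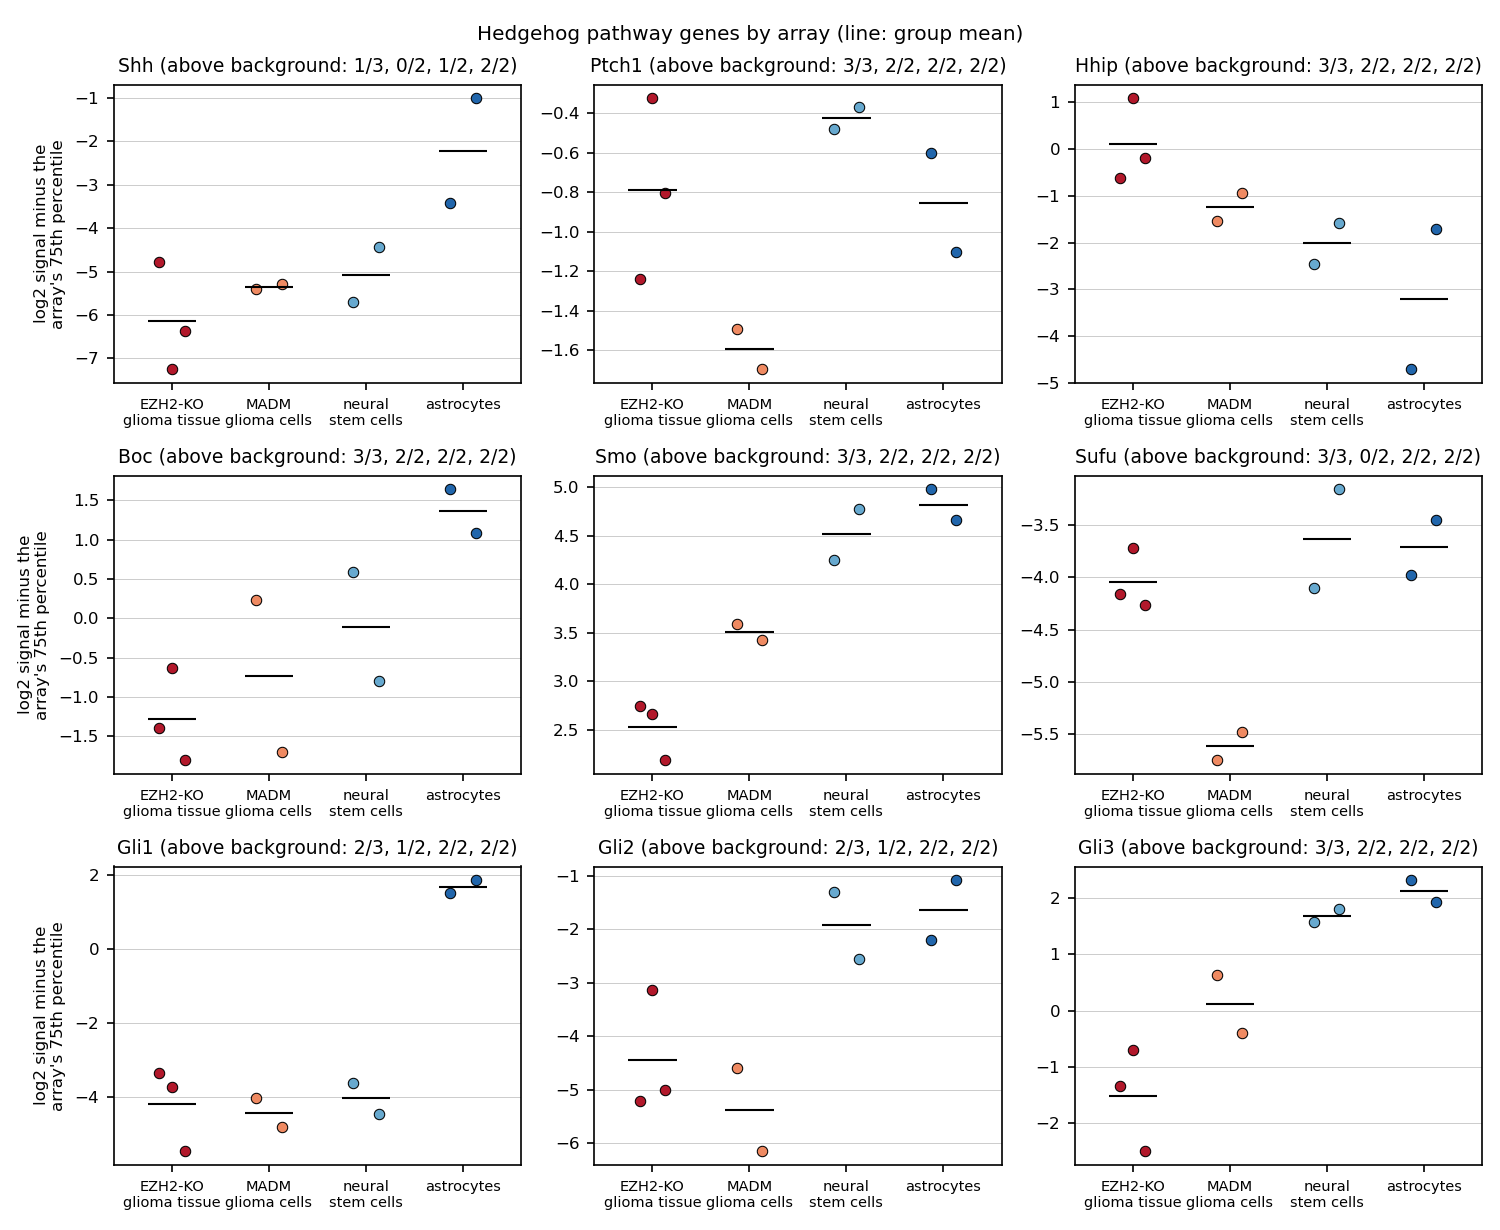
Levels of the 9 genes on every array (vertical axes, log2 relative to the array's 75th percentile, each panel on its own scale), with points for arrays and a line for the group mean; panel titles give the arrays above background in the order of the groups. Gli1 stood at 1.52 and 1.87 in astrocytes and below -3 on the other 7 arrays.

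**Figure D3:**
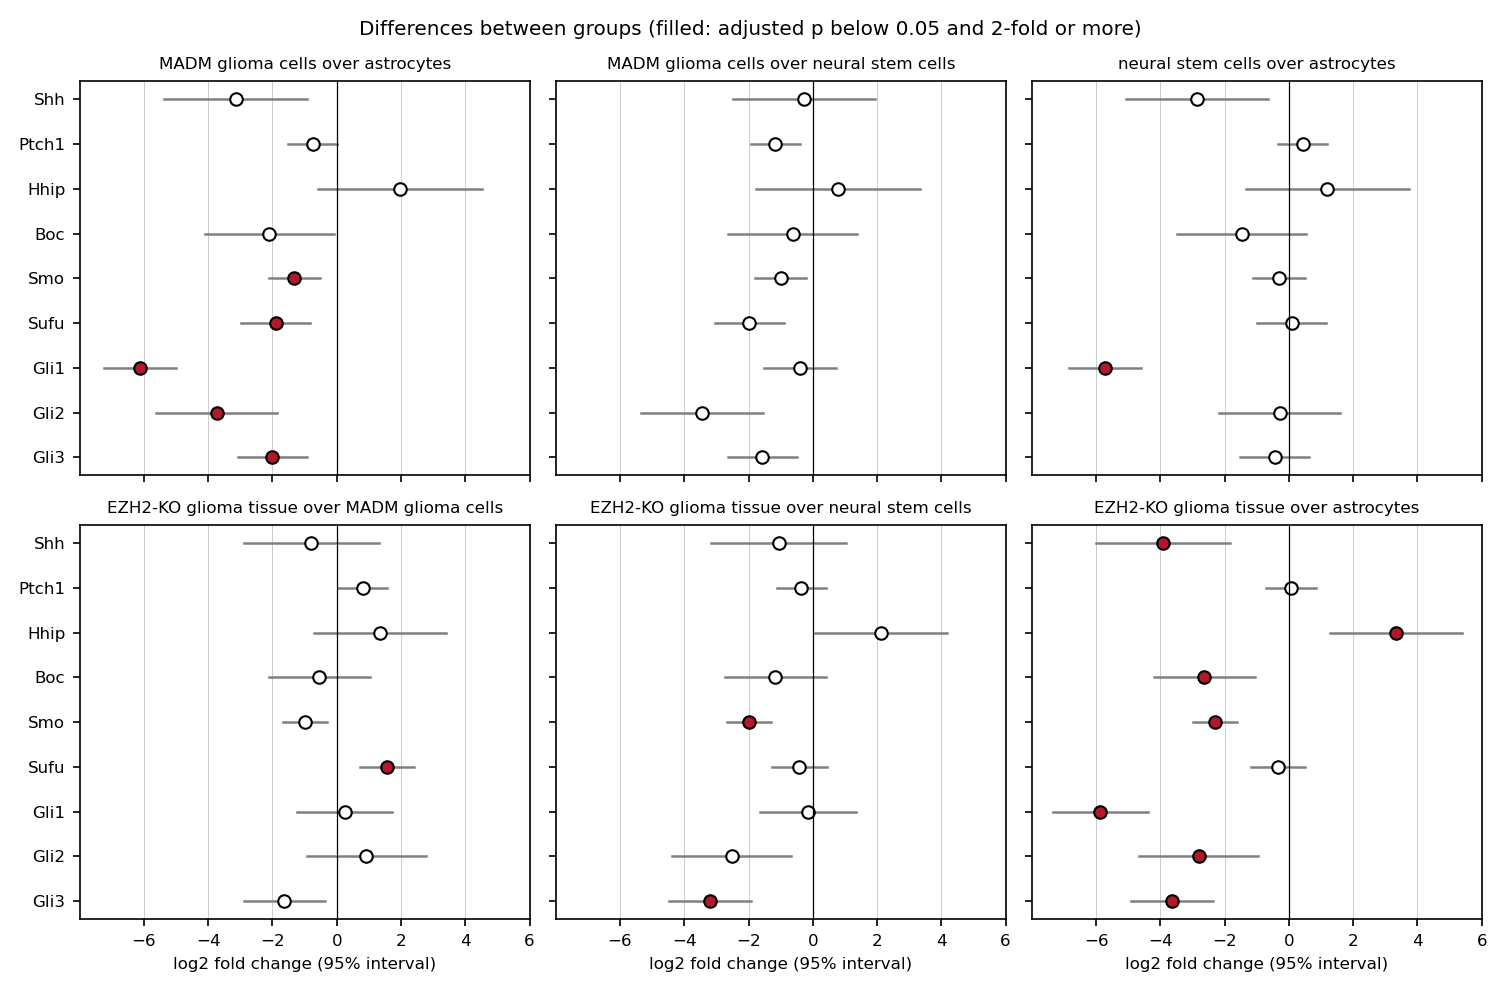
Log2 fold changes of the 9 genes in the 6 comparisons (points) with 95% intervals (lines); filled points were called. Filled points number 5 in MADM glioma cells over astrocytes and 7 in EZH2-KO glioma tissue over astrocytes.

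Shh, the ligand, was near the detection limit outside astrocytes. Its probe (A_52_P49014, chr5:28783983-28784042, mm9, 10 spots per array) stood at -4.79, -7.26 and -6.36 in EZH2-KO glioma tissue, -5.41 and -5.29 in MADM glioma cells, -5.71 and -4.43 in neural stem cells and -3.42 and -0.999 in astrocytes. Only 1 of 3 tissue arrays, 0 of 2 glioma cell arrays and 1 of 2 neural stem cell arrays were above background, against 2 of 2 astrocyte arrays, and both astrocyte arrays were above all the others. Shh thus entered the tests only through astrocytes, the group where it was high. Its differences from astrocytes are not independent of that filter. Shh fell in tissue against astrocytes (-3.93 on the log2 scale, SE 0.90, limma adjusted p = 0.019), and the call was lost without tissue replicate 3 (-3.81, adjusted p = 0.058) or without astrocyte replicate 2 (-2.71, adjusted p = 0.11). In MADM glioma cells it was at least 7.53-fold lower than in astrocytes (means -5.35 and -2.21), with an adjusted p of 0.063. For neural stem cells over astrocytes the log2 difference was -2.86 (SE 0.88, adjusted p = 0.085). Neither of these was called, although the first passed with the deposited table (-3.71, adjusted p = 0.039) and with the replicate block (-3.14, adjusted p = 0.040), and without astrocyte replicate 1 both passed (-4.35, adjusted p = 0.034, and -4.07, adjusted p = 0.044). The order below astrocytes (neural stem cells, glioma cells, tissue) did not exceed the spread, since those arrays overlapped.

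Ptch1, the receptor and itself a target of the pathway, had the smallest spread of group means among the genes above background on every array, and no call on its brighter probe (A_55_P2107292). It stood at -1.24, -0.32 and -0.80 in EZH2-KO glioma tissue, -1.49 and -1.70 in MADM glioma cells, -0.48 and -0.37 in neural stem cells and -0.60 and -1.10 in astrocytes. Both glioma cell arrays were below every other array, neural stem cells were above astrocytes, and tissue overlapped both. The difference was 0.81 in tissue over glioma cells (SE 0.33, adjusted p = 0.13), -1.17 in glioma cells over neural stem cells (SE 0.30, adjusted p = 0.17) and -0.74 in glioma cells over astrocytes (SE 0.30, adjusted p = 0.14). In tissue over astrocytes it was 0.06, with a 95% interval between -0.70 and 0.83.

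The second Ptch1 probe (A_52_P598605, chr13:63610298-63610357, mm9) gave another picture in tissue. It stood at -7.57, -7.44 and -7.75 in EZH2-KO glioma tissue, where no array was above background, against -1.93 and -1.81 in MADM glioma cells, -0.77 and -1.21 in neural stem cells and -1.38 and -1.62 in astrocytes. All 6 cell arrays lay far above all 3 tissue arrays. In a fit of all probes it was at least 10.4-fold lower in tissue than in glioma cells (means -7.59 and -1.87, adjusted p = 0.00015), at least 19.1-fold lower than in neural stem cells (mean -0.99, adjusted p = 0.00016) and at least 13.4-fold lower than in astrocytes (mean -1.50, adjusted p = 0.00025). In these 3 comparisons 15.7%, 16.7% and 22.6% of all probes were called. Within the cell arrays this probe kept the brighter probe's order of groups and was not called in any comparison, where 19.8% of probes were called in glioma cells over astrocytes, 0.947% in glioma cells over neural stem cells and 16.1% in neural stem cells over astrocytes. Of 28497 probes above background on all 6 cell arrays, 267 (0.937%) were above background on no tissue array, and 7 of these, this probe among them, were as bright in cells as this one or brighter. The probe is 21.7% G and C, against 53.3% for the brighter one. Averaging both probes turned the sign of Ptch1 in tissue against glioma cells (-2.45, adjusted p = 0.0015) and against astrocytes (-3.01, adjusted p = 0.00081), and gave -3.48 against neural stem cells (adjusted p = 0.00068), so that all 3 differences were called. Which probe reads Ptch1 in tissue was not tested.

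Hhip, a membrane protein that binds Hedgehog ligands and dampens the signal, ran the opposite way to most members except in tissue over glioma cells. It stood at -0.61, 1.09 and -0.18 in EZH2-KO glioma tissue, -1.53 and -0.94 in MADM glioma cells, -2.45 and -1.59 in neural stem cells and -4.72 and -1.71 in astrocytes (A_55_P1969276, chr8:82494280-82494339). All 3 tissue arrays were above every other array, glioma cells were above neural stem cells, and the 2 astrocyte arrays lay far apart, with replicate 2 within the range of neural stem cells. Hhip rose in tissue over astrocytes (log2 fold change 3.32, SE 0.88, adjusted p = 0.032). The call was lost without astrocyte replicate 1 (1.82, adjusted p = 0.15) and without tissue replicate 1, 2 or 3 (2.82 to 3.67, adjusted p between 0.051 and 0.077), and with only the groups compared in the fit (adjusted p = 0.057). Tissue over neural stem cells gave 2.12 (SE 0.88, adjusted p = 0.13), tissue over glioma cells 1.34 (SE 0.88, adjusted p = 0.32) and glioma cells over astrocytes 1.98 (SE 1.01, adjusted p = 0.21). The last passed the threshold without astrocyte replicate 2 (3.48, adjusted p = 0.041). The second Hhip probe (A_51_P416822) was dimmer, at -5.19, -2.35 and -3.94 in tissue with 2 of 3 arrays above background, and above background on 0 glioma cell, 0 neural stem cell and 1 astrocyte array. Hhip is also expressed by endothelium in some tissues, and the 6 endothelial and pericyte markers averaged between -0.29 and 0.32 in tissue, against -4.46 and -4.61 in glioma cells, -3.75 and -4.41 in neural stem cells and -2.98 and -0.99 in astrocytes. Cldn5 and Rgs5 were above background in tissue alone, and Cdh5 and Pdgfrb were higher in tissue than in glioma cells. Pecam1 was nearly level, with means of -2.06 in tissue, -2.06 in glioma cells, -2.16 in neural stem cells and -2.49 in astrocytes. Kdr had its lowest mean in tissue (2.10, against 2.77, 2.54 and 2.59 in the same order). The part of endothelium and pericytes in the Hhip difference was not tested.

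Boc, a cell-surface coreceptor that presents ligand to Ptch1, was highest in astrocytes. It stood at -1.40, -0.63 and -1.81 in EZH2-KO glioma tissue, 0.24 and -1.71 in MADM glioma cells, 0.59 and -0.80 in neural stem cells and 1.64 and 1.08 in astrocytes (A_55_P2067652, chr16:44485665-44485724). Both astrocyte arrays were above all 7 others, which overlapped from group to group. Boc fell in tissue against astrocytes (-2.64, SE 0.67, adjusted p = 0.028). That call was lost without any 1 of tissue replicates 1 and 3 or either astrocyte array (-2.92 to -2.36, adjusted p up to 0.14). In glioma cells against astrocytes the difference was -2.10 (SE 0.79, adjusted p = 0.12).

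Smo, the membrane protein that transmits the signal, was above background on every array, lowest in tissue and highest in astrocytes. It stood at 2.75, 2.66 and 2.18 in EZH2-KO glioma tissue, 3.59 and 3.42 in MADM glioma cells, 4.25 and 4.78 in neural stem cells and 4.98 and 4.66 in astrocytes (A_51_P258766, chr6:29711225-29711284). Tissue was below all other arrays, glioma cells were next, and neural stem cells and astrocytes overlapped. Smo fell in tissue against astrocytes (-2.29, SE 0.30, adjusted p = 0.0026) and against neural stem cells (-1.98, SE 0.30, adjusted p = 0.0054), and both calls held without any single array. It also fell in glioma cells against astrocytes (-1.31, SE 0.32, adjusted p = 0.046), but no longer passed without any 1 of these 4 arrays (-1.47 to -1.16, adjusted p between 0.11 and 0.17) without the filter on dim probes (adjusted p = 0.070), or with the mean of both probes (-0.74, adjusted p = 0.12). The neighbouring steps were -0.98 for tissue over glioma cells (SE 0.30, adjusted p = 0.059) and -1.01 for glioma cells over neural stem cells (SE 0.32, adjusted p = 0.25). The second Smo probe (A_55_P2121484) was at 1.55, 0.98 and 1.27 in tissue, 2.15 and 1.44 in glioma cells, 2.32 and 1.97 in neural stem cells and 1.89 and 2.04 in astrocytes. Its largest difference was -0.88 in tissue over neural stem cells (SE 0.32, adjusted p = 0.098), so it was called in none of the 6 comparisons.

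Sufu, the cytoplasmic inhibitor of the Gli proteins, was dim on all arrays and lowest in MADM glioma cells. Its brighter probe stood at -4.16, -3.72 and -4.27 in EZH2-KO glioma tissue, -5.75 and -5.48 in MADM glioma cells, -4.10 and -3.16 in neural stem cells and -3.97 and -3.45 in astrocytes. Neither glioma cell array was above background, both were below every other array, and the other 3 groups overlapped. Sufu rose in tissue, where it was at least 2.11-fold higher than in glioma cells (means -4.05 and -5.61, adjusted p = 0.026), and it fell in glioma cells, where it was at least 2.66-fold lower than in astrocytes (means -5.61 and -3.71, adjusted p = 0.038). Against neural stem cells the mean in glioma cells was at least 2.82-fold lower (mean -3.63, adjusted p = 0.12, interval -3.06 to -0.91), which was not called. The call in tissue was lost without tissue replicate 1 or 2 or either glioma cell array (1.40 to 1.70, adjusted p between 0.059 and 0.14), and the call in glioma cells was lost without any 1 of its 4 arrays (-2.17 to -1.64, adjusted p between 0.092 and 0.14). With normexp background correction on the median signals, chosen after seeing the data, the differences shrank to 0.16 (adjusted p = 0.69) and -0.27 (adjusted p = 0.50), and with normexp on the mean signals, run on the cell arrays, the second was also -0.27 (adjusted p = 0.52). The first was also lost with the mean of both probes (adjusted p = 0.060), and the second without the filter on dim probes (adjusted p = 0.054). The other Sufu probe was also not above background on either glioma cell array and was at least 2.78-fold lower there than in astrocytes (means -6.52 and -3.65, adjusted p = 0.014). In tissue it stood at -6.02, -4.53 and -5.57, above background on 1 of 3 arrays, and fell against astrocytes (-1.72, SE 0.51, adjusted p = 0.045), where the brighter probe gave -0.34.

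**Figure D4:**
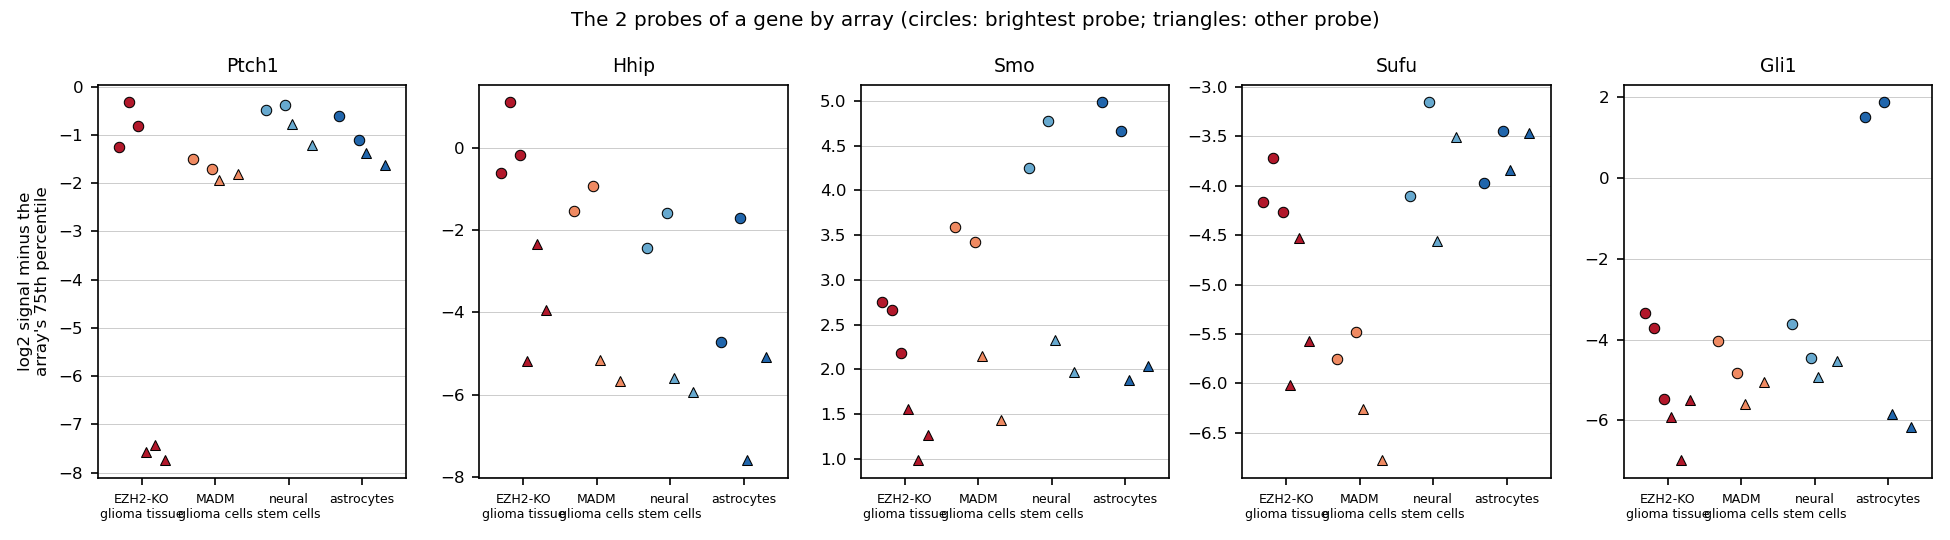
Both probes of Ptch1, Hhip, Smo, Sufu and Gli1 on every array (vertical axes, log2 relative to the array's 75th percentile; circles, the brighter probe; triangles, the other). The second Ptch1 probe stood between -7.75 and -7.44 in EZH2-KO glioma tissue and above -2 on all cell arrays, and the second Gli1 probe was low in astrocytes, where the brighter one was high.

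Gli1, an activator and the most widely used target gene of the pathway, was higher in astrocytes than in the other 3 groups by its brighter probe. That probe stood at -3.35, -3.71 and -5.46 in EZH2-KO glioma tissue, -4.02 and -4.81 in MADM glioma cells, -3.61 and -4.44 in neural stem cells and 1.52 and 1.87 in astrocytes (A_55_P2183587, chr10:126766967-126767026). Both astrocyte arrays were far above the other 7, which overlapped, and 2 of 3 tissue arrays, 1 of 2 glioma cell arrays and 2 of 2 neural stem cell arrays were above background. Gli1 fell in glioma cells against astrocytes (log2 fold change -6.11, SE 0.45, adjusted p = 0.0029). It fell 52.7-fold in neural stem cells against astrocytes (-5.72, SE 0.45, adjusted p = 0.0052). It fell in tissue against astrocytes (-5.87, SE 0.64, adjusted p = 0.0015). All 3 calls held without any single array, with adjusted p up to 0.020, 0.030 and 0.012. Between tissue, glioma cells and neural stem cells the differences lay between -0.39 and 0.24, with adjusted p of 0.76 or more. The second Gli1 probe (A_55_P2080658, chr10:126775021-126775080) was above background only in neural stem cells, at -4.93 and -4.53, against -5.84 and -6.17 in astrocytes. It was called in no comparison, so the high astrocyte level of Gli1 rests on 1 probe.

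Gli2, the main activator early in the response, was low in both tumour groups. It stood at -5.21, -3.14 and -5.01 in EZH2-KO glioma tissue, -4.59 and -6.16 in MADM glioma cells, -1.30 and -2.55 in neural stem cells and -2.20 and -1.08 in astrocytes (A_52_P357829, chr1:120731255-120731314). All 5 tumour arrays were below all 4 normal arrays. Tissue and glioma cells overlapped, as did neural stem cells and astrocytes, and 2 of 3 tissue arrays and 1 of 2 glioma cell arrays were above background. Gli2 fell in glioma cells against astrocytes (-3.74, SE 0.75, adjusted p = 0.029) and in tissue against astrocytes (-2.81, SE 0.79, adjusted p = 0.038). The first call was lost without glioma cell replicate 2 or either astrocyte array (-4.29 to -2.95, adjusted p up to 0.12), and the second without tissue replicate 1 or 3 or either astrocyte array (-3.37 to -2.26, adjusted p up to 0.19). Normexp on mean signals gave -1.22 for the first (adjusted p = 0.054), and the second was lost with the deposited table (adjusted p = 0.063) and without the filter on dim probes (adjusted p = 0.052). Against neural stem cells the differences were of like size but not called, -3.45 in glioma cells (SE 0.75, adjusted p = 0.13) and -2.53 in tissue (SE 0.79, adjusted p = 0.063). The difference in tissue passed the threshold without tissue replicate 2 (-3.19, adjusted p = 0.032).

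Gli3, the main repressor, kept the same order of groups as Smo. It stood at -1.33, -0.70 and -2.50 in EZH2-KO glioma tissue, 0.63 and -0.40 in MADM glioma cells, 1.57 and 1.80 in neural stem cells and 2.32 and 1.93 in astrocytes (A_51_P171288, chr13:15821502-15821561). No 2 groups overlapped, and every array was above background. Gli3 fell in tissue against astrocytes (-3.64, SE 0.55, adjusted p = 0.0044), with no array whose removal ended the call. It fell in tissue against neural stem cells (-3.20, SE 0.55, adjusted p = 0.0084), a call lost without neural stem cell replicate 2 (-3.08, adjusted p = 0.063). It fell in glioma cells against astrocytes (-2.01, SE 0.42, adjusted p = 0.033), lost without any 1 of 5 arrays, namely glioma cell replicate 2, both astrocyte and both neural stem cell arrays (-2.21 to -1.50, adjusted p between 0.056 and 0.13), or with only the groups compared in the fit (adjusted p = 0.052). The neighbouring steps, tissue over glioma cells (-1.63, SE 0.55, adjusted p = 0.079), glioma cells over neural stem cells (-1.57, SE 0.42, adjusted p = 0.19) and neural stem cells over astrocytes (-0.44, SE 0.42, adjusted p = 0.50), were not called.

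The rest of the pathway was read from 41 further genes, all tested in every comparison. In MADM glioma cells over astrocytes 3 rose and 9 fell, and in EZH2-KO glioma tissue over astrocytes 3 rose and 11 fell, with medians of -0.62 and -0.71. In neural stem cells over astrocytes 2 rose and 4 fell (median -0.66). In glioma cells over neural stem cells 1 rose and 0 fell (median -0.10), in tissue over neural stem cells 2 rose and 4 fell (median -0.18), and in tissue over glioma cells 3 rose and 1 fell (median -0.28). The shares of all genes called in these comparisons are those given with the members.

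Among ligands and genes of their release, Scube3, a secreted protein that helps release Shh, fell in neural stem cells against astrocytes (-3.57, SE 0.46, adjusted p = 0.012). It was also called lower than in astrocytes in glioma cells (-2.22, SE 0.46, adjusted p = 0.031) and in tissue. Of the 5 receptors and surface partners, Lrp2, an endocytic receptor that takes up Shh, fell in tissue against astrocytes (-5.70, SE 0.62, adjusted p = 0.0015) and against neural stem cells (-2.65, SE 0.62, adjusted p = 0.025), and in glioma cells against astrocytes (-4.03, SE 0.72, adjusted p = 0.022). Lrp2 stood at -2.61, -2.65 and -1.69 in tissue, -0.77 and -0.53 in glioma cells, -0.42 and 1.097 in neural stem cells and 4.18 and 2.59 in astrocytes, an order like that of Smo and Gli3.

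Of the 11 genes of the cilium and of Smo's partners, 4 fell in glioma cells against astrocytes (Evc2, Stk36, Evc and Iqce) and 3 in tissue against astrocytes (Stk36, Tulp3 and Ift88), with 0 higher in either. Evc2, which binds Smo at the base of the cilium, stood at 1.44, 2.21 and 2.05 in tissue, -4.08 and -1.02 in glioma cells, 2.36 and 3.24 in neural stem cells and 3.52 and 3.94 in astrocytes. Both glioma cell arrays were below the other 7. Evc2 fell in glioma cells against astrocytes (-6.28, SE 1.02, adjusted p = 0.017) and rose in tissue over glioma cells (4.45, SE 0.81, adjusted p = 0.011). The 4 markers of ependyma and choroid plexus, tissues rich in cilia, averaged -4.41, 0.70 and -4.72 in EZH2-KO glioma tissue, -5.39 and -4.67 in MADM glioma cells, -4.21 and -4.49 in neural stem cells and 1.11 and 0.32 in astrocytes. All 4 were above background on both astrocyte arrays and on tissue replicate 2, and their part in the changes of cilium genes was not tested. Stk36, a kinase-like protein related to the fly regulator fused, fell in tissue against astrocytes (-3.39, SE 0.26, adjusted p = 0.00057). Against astrocytes it also fell in glioma cells (-3.64, SE 0.30, adjusted p = 0.0034) and in neural stem cells (-2.25, SE 0.30, adjusted p = 0.013). Btrc, the ubiquitin ligase subunit that leads Gli proteins to processing, rose in tissue over glioma cells (1.87, SE 0.34, adjusted p = 0.012), over neural stem cells (1.19, SE 0.34, adjusted p = 0.0496) and over astrocytes (1.13, SE 0.34, adjusted p = 0.0495).

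Genes known as pathway targets in some tissue went both ways. Olig2 and Nkx2-2, ventral neural tube factors that also mark the oligodendrocyte lineage, rose in all 3 of the other groups over astrocytes. Olig2 stood at 4.18, 3.20 and 4.44 in tissue, 4.36 and 4.90 in glioma cells, 4.32 and 4.76 in neural stem cells and 0.22 and -0.13 in astrocytes, with log2 fold changes over astrocytes of 3.90, 4.58 and 4.50 (adjusted p = 0.0014, 0.0031 and 0.0052). They moved with the oligodendrocyte precursor list, whose part in this was not tested. Foxf1, a forkhead factor and Hedgehog target in the gut and lung, stood at 0.62, 1.94 and 1.15 in tissue and 2.88 and 2.49 in glioma cells, while neither neural stem cell array was above background (-7.82 and -6.28), and astrocytes were at -2.15 and 0.05. It was at least 255-fold higher in glioma cells than in neural stem cells (means 2.68 and -7.05, adjusted p = 0.025) and at least 93.7-fold higher in tissue than in neural stem cells (means 1.24 and -7.05, adjusted p = 0.00093). The call in glioma cells over neural stem cells was lost without astrocyte replicate 1 or either neural stem cell array. Foxf1 was also called lower in neural stem cells than in astrocytes, by at least 19.2-fold (means -7.05 and -1.05, adjusted p = 0.016). Foxa2, a forkhead factor of the floor plate, was above background on 0 of 3 tissue arrays and was at least 47.5-fold lower in tissue than in astrocytes (means -6.41 and 0.32, adjusted p = 0.0063) and at least 11.8-fold lower than in glioma cells (mean -1.68, adjusted p = 0.028). Neural stem cells were low as well, at -7.76 and -4.46, with 1 of 2 arrays above background. Foxa2 was called lower there than in astrocytes too (-6.43, SE 1.35, adjusted p = 0.038). Nkx6-2 was at least 14.04-fold lower in glioma cells than in astrocytes (means -6.18 and -1.31, adjusted p = 0.026) and at least 7.11-fold higher in tissue than in glioma cells (mean -2.29, adjusted p = 0.015). Sfrp1, a secreted Wnt modulator, and Bcl2, a survival protein, fell in tissue against neural stem cells (-1.89, SE 0.39, adjusted p = 0.016, and -1.23, SE 0.31, adjusted p = 0.031). Both were also called lower than in astrocytes in glioma cells and in tissue.

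**Figure D5:**
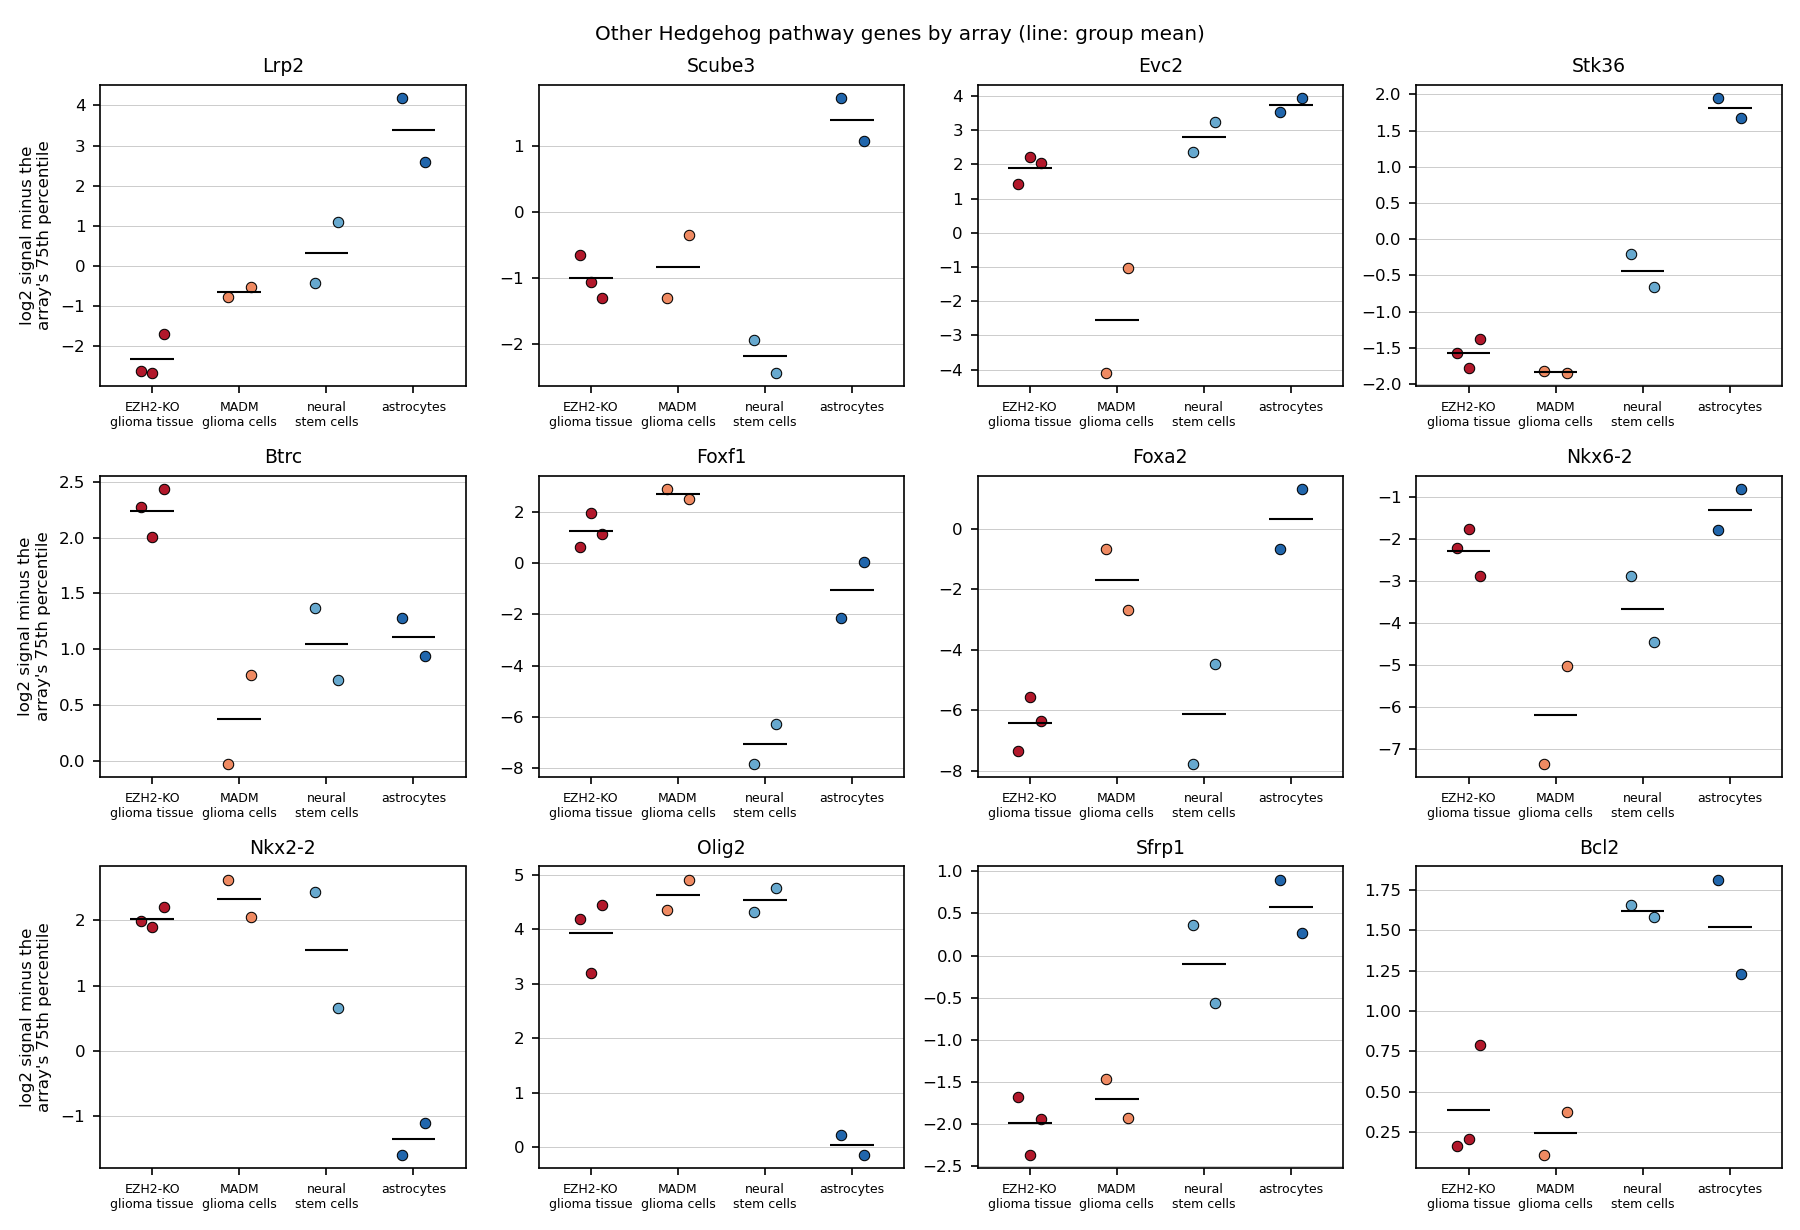
Levels of 12 other pathway genes on every array (vertical axes, log2 relative to the array's 75th percentile, each panel on its own scale), with a line for the group mean. Lrp2 and Stk36 were highest in astrocytes, Evc2 and Nkx6-2 lowest in MADM glioma cells, and Foxf1 lowest in neural stem cells, at -7.82 and -6.28.

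The genes most like each member were found among 15937 tested genes with a gene symbol (clone and predicted-gene names left out), by the root mean square difference of levels centred on each gene's mean over the 9 arrays. Gli1 was most like Bdh2 (0.45), Prss23 (0.49) and Prrx2 (0.52), which were also high in astrocytes alone. Smo was most like Plxnb2 (0.25), Mtfr1 (0.28) and Lhb (0.29), and Gli3 was most like Malat1, listed under that symbol and under the older name NEAT2 (both 0.54), and Cib1 (0.58). Gli2 was most like Galnt4 (0.57), Tead3 (0.64) and Stbd1 (0.66). Shh was most like Fst (0.63), Igfbp7 (0.67) and Clec4b1 (0.72), and Boc most like Tpp1 (0.28), Nedd9 (0.37) and Morn1 (0.37). Ptch1 was most like Gbf1 (0.20), Pcif1 (0.21) and Smpd2 (0.21), Sufu most like Sipa1 (0.28), Dnmbp (0.31) and Ltbr (0.32), and Hhip most like Casp14 (0.52), Stab2 (0.63) and Potegl (0.66). For scale, the members' own SD over the 9 arrays lay between 0.50 for Ptch1 and 2.68 for Gli1, so a small value for Ptch1 means less than the same value for Gli1.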

How the data were processed

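Total RNA of 9 samples was extracted with TRIzol and 200 ng of each were labelled with Cy3 for 1-colour Agilent mouse arrays, per the labels' protocols. The deposited scanner files hold intensity values per spot, written by Agilent Feature Extraction 10.7.3.1 for the tissue and 10.7.1.1 for the cells, per the file headers; the submitters' processing notes name 10.7.3.1. The authors' deposited table of log2 values matched log2 of the processed signal within 0.01 for 99.0% to 99.8% of 55666 probes, so its direction and scale were settled from the data and it was neither centred nor scaled between arrays. Its column medians were 5.71, 5.99 and 6.29 in EZH2-KO glioma tissue, 5.42 and 5.14 in MADM glioma cells, 5.60 and 5.09 in neural stem cells and 5.62 and 5.80 in astrocytes.

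Of 62976 spots, control spots and between 96 and 164 outlier spots on each array were dropped. Saturated spots numbered 0. Spots of a probe were averaged, and log2 of the processed signal was centred on each array's 75th percentile. The array's gene symbols were updated through RefSeq accessions for 27232 probes, symbols for 3579 and synonyms for 565, and were left as they were for 24290. Positions of probes are mm9, per the arrays' annotation. No annotation of mm9 was used, so exon, intron or UTR is not given. Probes entered the test if 1 or more groups had them above background on all arrays, and the brightest such probe stood for its gene. limma 3.58.1 (R 4.3.3) was fitted to the 6 cell arrays for comparisons among cells (24866 genes, 3 residual degrees of freedom) and to all 9 arrays for comparisons with tissue (25397 genes, 5 residual degrees of freedom), with Benjamini-Hochberg adjustment over all genes tested. Where no array of a group was above background, a fold is a bound: the brighter group's mean against the dim group's mean of, per array, the higher of the probe's own level and the lowest level among probes above background. It bounds the difference of the means for the detection limit only and takes no account of the spread between arrays. The code was tested on simulated data. The members and lists were chosen with earlier results of these data known. All members are named. Other pathway genes are named up to 3 per comparison and direction by size among those called, with the genes listed in groups named after their values were seen. Some items are not reported here. The 11 marker lists were those for astrocytes, mature oligodendrocytes and their precursors, neurons, neural stem cells, microglia and macrophages, endothelium and pericytes, fibroblasts and meninges, cell cycle, cerebellar granule neuron precursors, and ependyma and choroid plexus.

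The number of arrays limits the precision. Alternatives were other background corrections, normalizations, filters on dim probes, probe rules and samples in the fit, the replicate number as a block, and leaving out each array. Normexp on median signals, all arrays in the fit of cells, and the fit of single probes were chosen after seeing the data. The tissue files hold no mean signal, so normexp on mean signals was run for cells only.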

Additional observations from a re-analysis of the deposited data

How the results depend on the processing

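Of 54 values (9 genes in 6 comparisons), 52 kept sign and side of the threshold with the 75th percentile taken over probes above background on all arrays, 53 with quantile normalization, 51 without a filter on dim probes, 49 with normexp on median signals, 48 with the deposited table, and 47 each with the mean of a gene's probes and with the replicate block. Leaving out 1 array kept both in 346 of 405 values. Of the 16 calls as reported, 6 (Gli1 against astrocytes in 3 comparisons, Smo in 2, Gli3 in tissue over astrocytes) held without any single array, and 10 were lost without at least 1. The second probes of Gli1 and Smo were called in no comparison, and Gli3 had only 1 probe. The replicate block ended the call of Smo in glioma cells over astrocytes and brought Boc and Shh past the threshold there, and the cause was not tested. That fit also leaves out tissue replicate 3, and the calls of Boc, Gli2 and Shh in tissue over astrocytes, not made under it, were equally lost without that array alone.

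Counts of called members moved in MADM glioma cells over astrocytes to 3 with normexp on mean signals, 3 without a filter and 2 with the stricter filter (5 as reported). They moved in neural stem cells over astrocytes to 0 with the stricter filter. In EZH2-KO glioma tissue over MADM glioma cells they moved to 0 with normexp on median signals and 0 with the stricter filter, and in EZH2-KO glioma tissue over astrocytes to 4 with the stricter filter and 4 with the replicate block. The stricter filter tested 5 of the 9 members (not Shh, Sufu, Gli1 or Gli2), and 30 of their 30 values kept sign and call, so its lower counts come from fewer members tested. Without 1 array the counts of members ranged between 1 and 4 in glioma cells over astrocytes, 0 and 0 over neural stem cells, and 1 and 2 in neural stem cells over astrocytes. For tissue they ranged between 0 and 1 over glioma cells, 1 and 3 over neural stem cells and 3 and 7 over astrocytes.

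Counts over all genes moved in MADM glioma cells over neural stem cells (243 as reported) to 129 without a filter, 68 with the stricter filter, 111 with only the groups compared, 486 with all arrays in the fit and 49 with the replicate block. In EZH2-KO glioma tissue over MADM glioma cells (4300) they moved to 2770 with the stricter filter and 2667 with the replicate block. With that block they moved to 2639 in tissue over neural stem cells (4564) and to 3219 in tissue over astrocytes (5835), where leaving out tissue replicate 3 alone gave 3195 over glioma cells, 3219 over neural stem cells and 3801 over astrocytes. Without 1 array they ranged between 2033 and 4777 in glioma cells over astrocytes (4684), 0 and 299 over neural stem cells, and 1232 and 2618 in neural stem cells over astrocytes (3627). For tissue they ranged between 1979 and 4643 over glioma cells, 1644 and 4250 over neural stem cells and 3184 and 6048 over astrocytes.

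Scaling moved the balance of calls. The deposited unscaled table put 30.1% of calls higher in glioma cells over astrocytes (47.8% as reported), 24.1% in neural stem cells over astrocytes (46.2%), 79.6% in tissue over glioma cells (46.2%) and 77.7% in tissue over neural stem cells (44.9%), with all-gene medians of -0.29, -0.19, 0.38 and 0.29. The percentile over detected probes gave 62.3% in tissue over glioma cells and 57.6% in tissue over neural stem cells, with medians of 0.08 and -0.01.

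Some signs reversed. Sufu in neural stem cells over astrocytes became -0.012 with the percentile over detected probes, -0.33 with the deposited table and -0.15 with the mean of probes. Ptch1 became -2.45 in tissue over glioma cells and -3.01 in tissue over astrocytes with the mean of probes, and 0.14 in tissue over neural stem cells with the deposited table. Gli1 in tissue over glioma cells became -0.26 with normexp on median signals and -0.28 with the mean of probes, and Gli2 became -0.013 with that normexp. In tissue over neural stem cells Gli1 became 0.055 with the percentile over detected probes, 0.36 with the deposited table and 0.50 with the replicate block, the same value as without tissue replicate 3 alone, and Sufu became 0.089 with the deposited table.

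Without 1 array, signs reversed within ranges of -1.60 to 0.34 for Boc, -0.81 to 0.026 for Gli1 and -0.92 to 0.36 for Shh in glioma cells over neural stem cells. In neural stem cells over astrocytes the ranges were -0.30 to 2.70 for Hhip, -0.92 to 0.34 for Gli2 and -0.39 to 0.55 for Sufu. In tissue they were -1.51 to 0.43 for Boc and -0.17 to 0.89 for Gli1 over glioma cells, -0.57 to 0.50 for Gli1 and -0.89 to 0.055 for Sufu over neural stem cells, and -0.19 to 0.31 for Ptch1 over astrocytes.

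The replicate block fitted the arrays numbered 1 and 2. The deviations of same-numbered arrays correlated between -0.09 and 0.12. Each group gave only a single difference between arrays, so these values cannot settle whether the numbers pair the samples. Slide and scan as a block could not be run, since tissue and cells lay on different slides and the cells on 1. Members that are dim (Sufu on all arrays, Shh and Gli1 outside astrocytes, and Gli2 in both tumour groups) are limited by signal over background.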

Other observations

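Cerebellar granule neuron precursors depend on Hedgehog signalling. Atoh1, their defining transcription factor, was not above background on any of the 9 arrays. The 3-gene list of Atoh1, Zic1 and Barhl1 averaged between -2.72 and -1.81 in EZH2-KO glioma tissue, -2.49 and -4.62 in MADM glioma cells, -1.66 and -1.43 in neural stem cells and -0.84 and -1.22 in astrocytes.

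The remaining lists are given as means per array. The 5 mature oligodendrocyte markers averaged 3.11, 4.21 and 3.05 in EZH2-KO glioma tissue, 1.55 and 2.28 in MADM glioma cells, 1.88 and -0.30 in neural stem cells and 0.61 and -0.20 in astrocytes. The 6 neuron markers averaged between 2.40 and 3.76 in tissue, -0.20 and 0.67 in glioma cells, 1.17 and 0.05 in neural stem cells and -1.77 and -2.43 in astrocytes. The 6 neural stem cell markers averaged between 3.93 and 4.28 in tissue, 1.18 and 4.33 in glioma cells, 5.41 and 5.33 in neural stem cells and 4.45 and 3.39 in astrocytes. On glioma cell replicate 1, Sox2 and Prom1 of that list were not above background. The 6 cell cycle genes averaged between 2.06 and 2.08 in tissue, 4.47 and 4.43 in glioma cells, 1.65 and 4.73 in neural stem cells and 0.01 and 0.58 in astrocytes, so the 2 neural stem cell arrays differed widely.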
